A study of Rattus norvegicus with 12 samples.

Results

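The 7 genes described here are IgG Fc receptors and adaptor chains of immune receptors, chosen by name from the 32883 genes of the deposited tables. They are the inhibitory receptor Fcgr2b, the activating receptors Fcgr1a, Fcgr2a and Fcgr3a, and the adaptors Fcer1g, Tyrobp and Hcst. Each was followed in Kupffer, Lyz2 myeloid, NK, plasmacytoid dendritic (pDC), B and sinusoidal endothelial cells of rat liver, by strain and by platform. All 7 were present in every table.

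Fc receptors bind the constant part of antibodies. The activating IgG receptors have short tails and signal through the Fc receptor gamma chain, encoded by Fcer1g, whose immunoreceptor tyrosine-based activation motif (ITAM) recruits the kinase Syk; Tyrobp encodes DAP12, an ITAM adaptor of many myeloid and NK receptors, and Hcst encodes DAP10, an adaptor that engages phosphoinositide 3-kinase downstream of NKG2D. Fcgr2b instead carries an inhibitory motif (ITIM) in its own tail, and in liver it is known from sinusoidal endothelium, where it takes small immune complexes out of the blood.

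The study mapped healthy male rat liver in 2 inbred strains, Dark Agouti (DA) and Lewis (LEW), with no treatment or engineered allele given in the labels; deposited sample names of the rats also read SHAM, with no operation described. Collagenase-dissociated total liver homogenate (TLH) of 2 DA and 2 LEW rats was run on 10x 3′ version 2 chemistry. Version 3 chemistry was used for an immune-enriched preparation of 1 rat per strain, obtained with additional washing, and for nuclei of snap-frozen liver from 2 rats per strain. Visium sections came from 2 Wistar livers. Names given to the deposited samples put the TLH rats at 10 weeks (DA) and 13 weeks (LEW) and both immune-enriched rats at 9 weeks, while the series text gives 8 to 10 weeks, and the study's methods give other ages and call the strains age matched. The sources disagree; by the sample names, age and strain cannot be told apart in TLH. The nuclei samples bear the same animal numbers as the TLH samples, although the study describes them as further rats.

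After the cell filters, 3844 to 7112 cells per TLH library, 1163 and 2677 immune-enriched cells and 2205 to 5262 nuclei per library remained, at medians of 1794 to 2545.5, 4090 and 5581, and 1541.5 to 2059 UMIs per cell. The 4 nuclei libraries, of 4458 to 10552 barcodes, shared 8 to 24 barcodes per pair. Cells were clustered without the 7 genes and clusters were named from marker genes. Endothelial-like cells carried all 5 sinusoidal endothelial defining markers in every library. Their summed levels were 1453 to 1740 CPM (counts per 1000000 UMIs) in TLH, 2808 to 5734 in nuclei and 6864 and 5223 in the immune-enriched cells. In Kupffer-like cells these markers summed to 48 to 204, 106 to 262, and 421 and 715 CPM. The 14 Kupffer markers summed to 19168 to 40725 CPM in Kupffer-like TLH cells, 5016 to 9532 in nuclei, and 57659 and 75801 in the immune-enriched cells. In endothelial-like cells they summed to 642 to 1060, 139 to 383, and 848 and 403 CPM. The Lyz2 class did not separate cleanly in these data: it joined monocyte-like cells, cells rich in MHC class II and dendritic cell genes, and 1 cluster rich in Kupffer markers in each of TLH and the immune-enriched libraries, and is called Lyz2 myeloid-like for its leading gene. In nuclei it held only 5 to 12 nuclei per library, so nuclei are described for Kupffer-like and endothelial-like classes alone. Levels are given over the UMIs of a whole class summed in 1 library.

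Fcgr2b was highest in endothelial-like cells on all 3 platforms. In the immune-enriched libraries it stood at 3574 CPM (DA) and 3834 CPM (LEW) in endothelial-like cells, against 163.7 and 457.8 in Kupffer-like, 143.8 and 109.3 in Lyz2 myeloid-like, 109.1 and 26.75 in B-like, 58.08 and 49.45 in pDC-like and 5.57 and 4.20 in NK-like cells. The endothelial level was the highest of these 6 classes in both libraries and that of NK-like cells, with 3 and 1 UMIs, the lowest. Kupffer-like cells stood above Lyz2 myeloid-like cells in both, but this order turned (log2 1.60 in favour of Lyz2 myeloid-like cells) without 37 Kupffer-like cells that also carried endothelial markers, described further on. Hepatocyte-like cells, which should lack the gene, gave 3.21 and 3.1 CPM, so the NK level was close to that background. In TLH the endothelial-like level was 468.3 and 542.6 CPM in DA and 854.4 and 854.3 in LEW, and in nuclei 1144 and 1852 in DA and 1154 and 941.7 in LEW.

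Most endothelial-like cells carried the transcript once depth allowed it to be seen. After each cell was thinned to 1000 UMIs, a depth that every cell reached, 37.65% and 41.09% of DA and 55.05% and 55.19% of LEW endothelial-like TLH cells had an Fcgr2b UMI, against 1.01% to 1.99% of hepatocyte-like cells. Without thinning the endothelial shares were 56.3%, 70.31%, 82.68% and 79.63%, at median depths of 1654, 2292, 2297 and 2324 UMIs, and the hepatocyte shares 2.80% to 4.16% at medians of 1821 to 2620 UMIs. The thinned endothelial share was 63.5% to 83.55% in nuclei and 82.73% and 89.91% in the immune-enriched libraries, with hepatocyte-like shares of 0.826% to 1.06% and 0.877% and 1.05%. All of these shares lay far above the hepatocyte background.

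**Figure D1:**
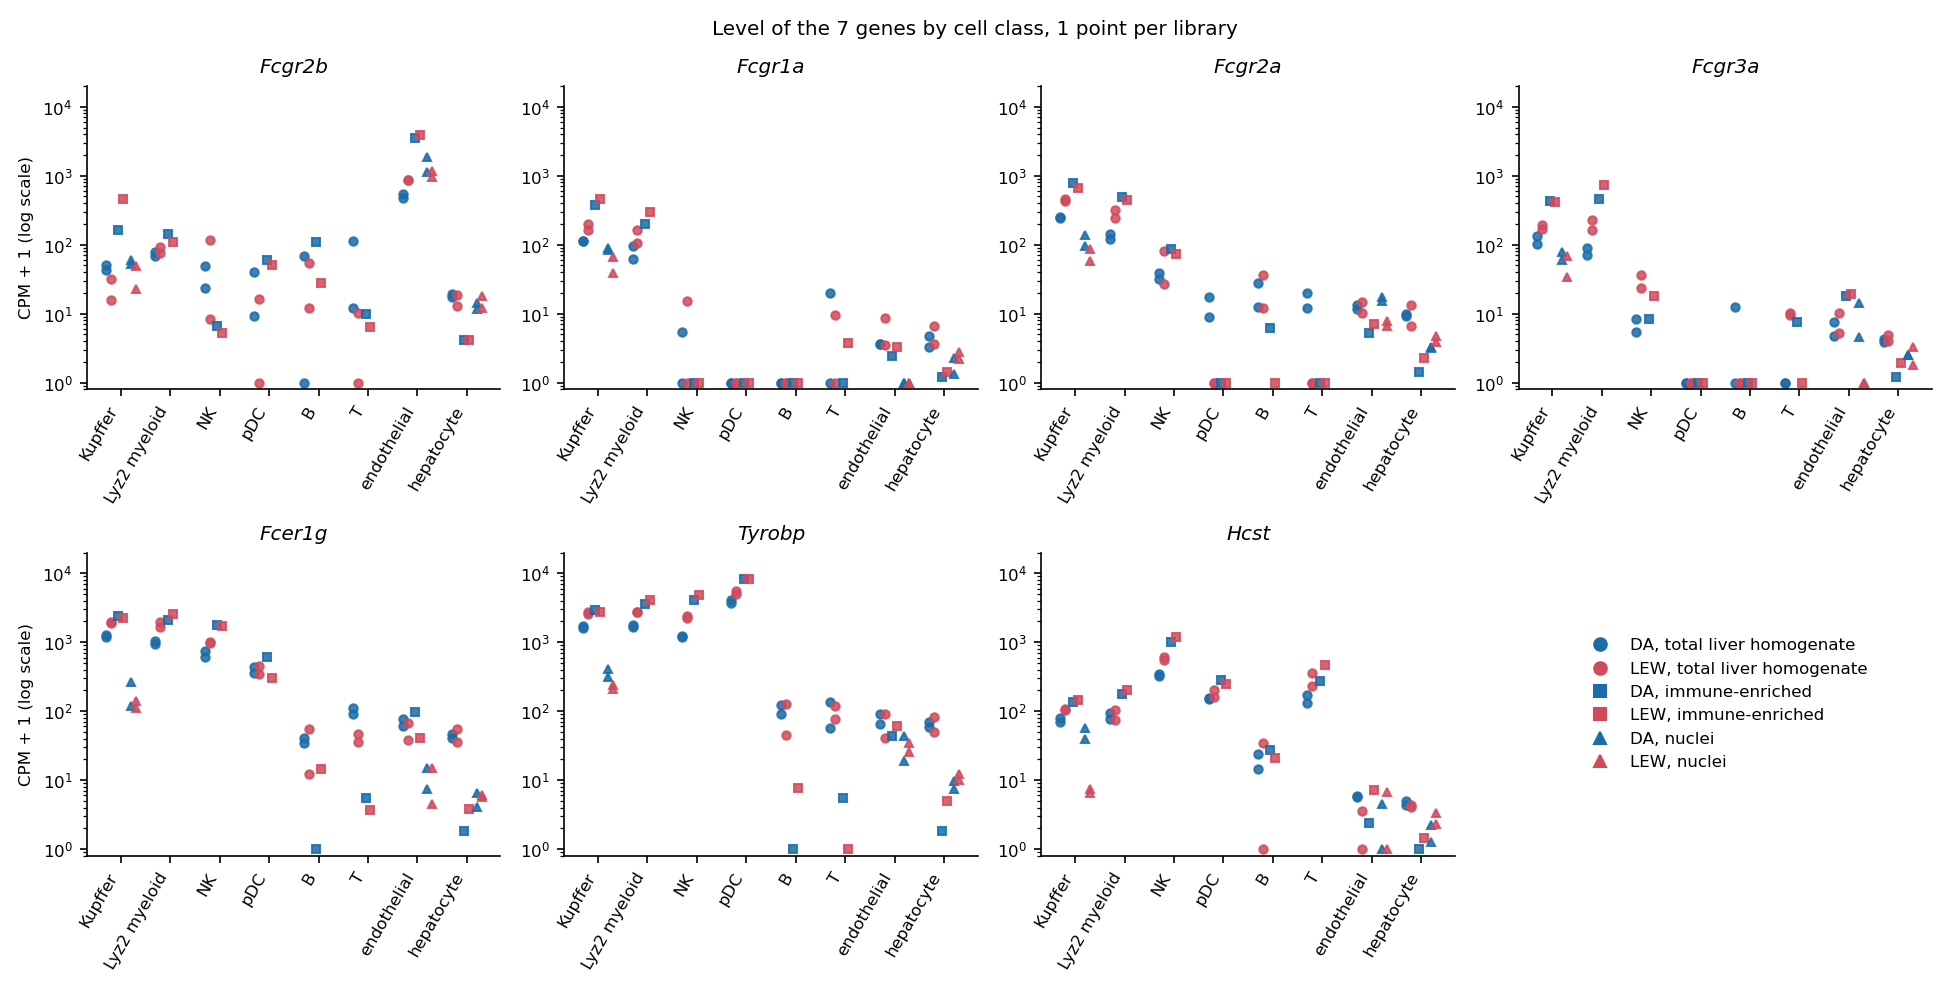
Level of each of the 7 genes (CPM + 1, log axis) in each named cell class, 1 point per library, coloured by strain and shaped by platform, with nuclei drawn for Kupffer-like, endothelial-like and hepatocyte-like classes alone. Fcgr2b peaked in endothelial-like cells (3574 and 3834 CPM in the immune-enriched libraries), the activating receptors in Kupffer-like and Lyz2 myeloid-like cells, Tyrobp in pDC-like cells (8357 and 8267 CPM) and Hcst in NK-like cells (995.6 and 1195 CPM).

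The activating receptors followed the macrophage and myeloid classes. Fcgr1a, the high-affinity IgG receptor, stood at 379 and 453.4 CPM in immune-enriched Kupffer-like cells and 196.1 and 296.6 in Lyz2 myeloid-like cells. It had no UMI in NK-like, pDC-like or B-like cells of either immune-enriched library and only 1.42 and 2.31 CPM in endothelial-like cells. Against Kupffer-like cells, with a floor of 3 UMIs over the group, the level was at least 111.9-fold lower in NK-like, 59.66-fold lower in pDC-like and 49.27-fold lower in B-like cells.

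Fcgr2a was also highest in these classes, and unlike Fcgr1a was detected in NK-like cells. Its level was 771.6 and 652 CPM in Kupffer-like, 483.8 and 446.1 in Lyz2 myeloid-like and 85.44 and 71.31 in NK-like cells, with no UMI in pDC-like cells and 1 UMI in B-like cells. Kupffer-like cells were above Lyz2 myeloid-like cells, and those above NK-like cells, in both libraries. Endothelial-like cells had 4.27 and 6.16 CPM. RefSeq lists Fcgr3 among the older names of this rat gene, and 2 near-identical neighbours, Fcgr2al1 and Fcgr2a-ps1, are not among the genes counted here, so reads could have been shared with them.

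Fcgr3a, listed in RefSeq with the older name Fcgr4, was the only activating receptor higher in Lyz2 myeloid-like than in Kupffer-like cells of both immune-enriched libraries, at 463.6 and 727.1 against 430.7 and 419.2 CPM. This difference did not pass the test given further on. NK-like cells had 7.43 and 16.78 CPM, endothelial-like cells 17.08 and 18.48, and pDC-like and B-like cells none.

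The table of RefSeq promoter windows used here (GRCr8, from 250 bases before to 50 after a start site) matched 3 of the 7 genes. They are shown for Fcgr2a and Fcgr3a, the activating receptors among the 3, with capitals marking GAGGAA or its reverse complement, the core of PU.1-type sites in myeloid genes. Fcgr2a (start site 1) spans chr13:85828636-85828935 on the minus strand, and Fcgr3a spans chr13:85782386-85782685 on the plus strand.
Fcgr2a: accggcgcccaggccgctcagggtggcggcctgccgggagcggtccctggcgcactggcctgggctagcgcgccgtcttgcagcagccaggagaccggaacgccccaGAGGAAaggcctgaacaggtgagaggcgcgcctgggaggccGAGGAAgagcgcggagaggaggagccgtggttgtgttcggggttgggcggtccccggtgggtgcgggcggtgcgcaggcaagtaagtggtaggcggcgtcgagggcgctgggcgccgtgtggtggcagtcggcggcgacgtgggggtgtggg
Fcgr3a: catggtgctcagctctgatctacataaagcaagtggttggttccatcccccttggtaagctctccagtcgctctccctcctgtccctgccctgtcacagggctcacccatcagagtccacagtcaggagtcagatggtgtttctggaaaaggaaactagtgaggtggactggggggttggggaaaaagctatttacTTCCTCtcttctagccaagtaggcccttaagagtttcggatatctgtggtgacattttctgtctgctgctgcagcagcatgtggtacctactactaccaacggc
The first Fcgr2a window held the letters 2 times and the Fcgr3a window 1 time, beginning 143, 102 and 54 bases before the start site; the second Fcgr2a start site and that of Hcst held none. The letters occurred in 27.6% of 33469 promoter windows, so a match is common and is given as a description only.

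The adaptors had wider distributions than the receptors, and each had its own order of classes. Fcer1g, the gamma chain, was at 2410 and 2259 CPM in immune-enriched Kupffer-like, 2127 and 2565 in Lyz2 myeloid-like, 1770 and 1699 in NK-like and 604.7 and 304.9 in pDC-like cells. The first 3 classes lay close together and pDC-like cells were lower in both libraries. B-like cells had 2 Fcer1g UMIs in all, and T-like cells 4.44 and 2.73 CPM.

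Tyrobp was highest in pDC-like cells, at 8357 and 8267 CPM, and 100% of the pDC-like cells of both immune-enriched libraries carried a UMI after thinning to 1000 UMIs, against 0.877% and 1.36% of hepatocyte-like cells. Without thinning the shares were 100% and, in hepatocyte-like cells, 1.32% and 4.95%, at median depths of 7221 and 7506 against 15694.5 and 12115 UMIs. NK-like cells followed at 4046 and 4799, Lyz2 myeloid-like cells at 3630 and 4124 and Kupffer-like cells at 2955 and 2733. This order was the same in both libraries. It is an order of class levels: a small Lyz2 myeloid-like cluster described further on stood above pDC-like cells. The difference between pDC-like and Lyz2 myeloid-like cells did not pass the test given further on. B-like cells held 1 Tyrobp UMI and T-like cells 4.44 CPM and none. In TLH pDC-like cells were again highest, at 3683 and 4115 CPM in DA and 4962 and 5487 in LEW.

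Hcst set NK-like cells apart, at 995.6 and 1195 CPM in the immune-enriched libraries. T-like cells came next at 273.1 and 472.1, then pDC-like cells at 280.1 and 247.3, Lyz2 myeloid-like cells at 174.7 and 198.5, Kupffer-like cells at 134.1 and 145.3 and B-like cells at 25.99 and 20.06. The NK level was above all others in both libraries, while the T and pDC levels overlapped. In TLH the NK level was 319.4 to 600.6 CPM and the T level 130.4 to 357.5.

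Set against each other within a class, the inhibitory and activating receptors gave opposite balances. For each Fcgr1a, Fcgr2a or Fcgr3a UMI, immune-enriched endothelial-like cells held 156.9 Fcgr2b UMIs in DA (95% interval 96.45 to 275) and 142.3 in LEW (102.1 to 204.5). Without the cells of highest doublet score these were 603 and 312.8, so their size is uncertain. The same ratio was 23.4 and 29.18 in DA and 53.74 and 28.25 in LEW endothelial-like TLH cells, and 62.89 to 167 in nuclei. Kupffer-like cells had ratios of 0.0909 and 0.1 in DA and 0.0191 and 0.037 in LEW in TLH, and 0.17 to 0.221 in nuclei. In the immune-enriched libraries they had 0.104 and 0.3, or 0.0218 and 0.027 without a cluster that carried endothelial markers. No Kupffer-like ratio came near any endothelial-like ratio. Lyz2 myeloid-like cells had 0.13 to 0.253 in TLH and 0.126 and 0.0744 in the immune-enriched libraries. Hepatocyte-like TLH cells, taken as the free-RNA background, had 0.815 to 1.2, between the macrophage and endothelial values. The intervals cover counting error only.

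**Figure D2:**
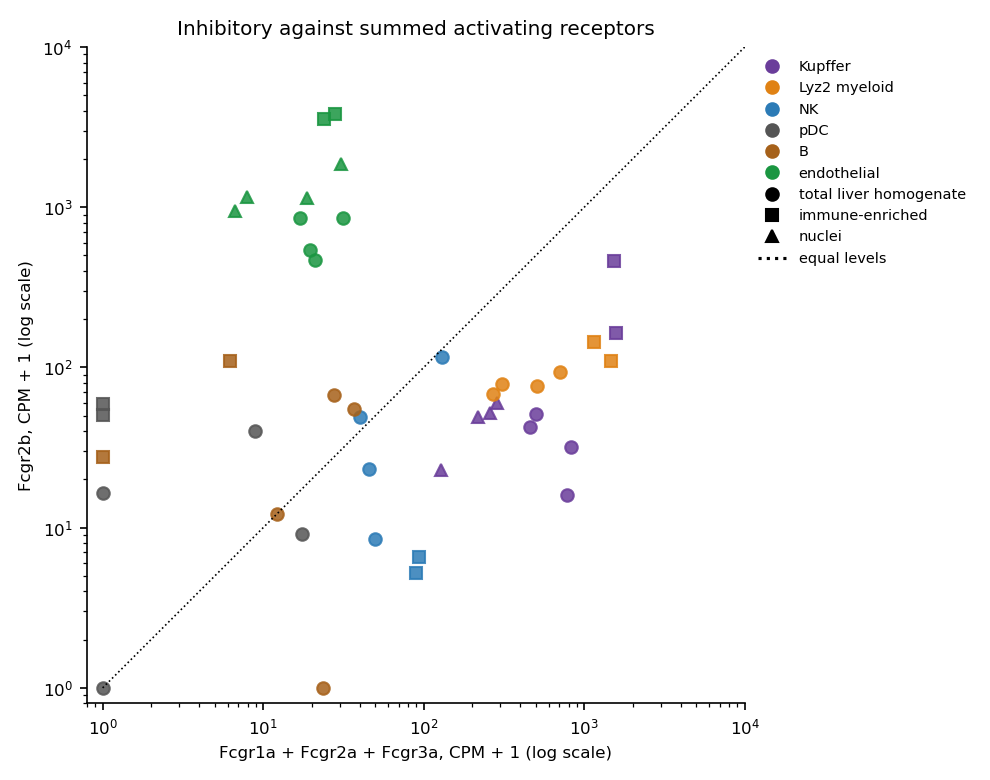
Fcgr2b level (CPM + 1, y axis, log) against the summed level of Fcgr1a, Fcgr2a and Fcgr3a (CPM + 1, x axis, log) for each class and library, with a dotted line of equal levels; nuclei are drawn for Kupffer-like and endothelial-like classes alone. Endothelial-like points sit above the line (ratios of 23.4 to 167) and Kupffer-like and Lyz2 myeloid-like points below it (0.0191 to 0.3).

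In pDC-like and B-like cells few UMIs of either kind of receptor were seen. The immune-enriched pDC-like cells of both libraries together held 23 Fcgr2b UMIs and none of the 3 activating transcripts. In B-like cells the DA library held 21 Fcgr2b UMIs per activating UMI (3.38 to 868.5), from 1 activating UMI, and the LEW library held 4 Fcgr2b UMIs and no activating one, which allows a ratio as low as 0.66; hepatocyte-like cells of these libraries had ratios of 4 and 1.2. In TLH the ratio was 0, 2.5, 1 and 1.5 in B-like cells and 0.5 and 5 in the DA pDC-like cells, from at most 5 UMIs of either kind and with every interval spanning 1, so no excess of the inhibitory receptor was detectable there. In TLH the B-like Fcgr2b level was 0 and 66.64 CPM in DA and 11.11 and 53.78 in LEW, against 11.9 to 18.13 in hepatocyte-like cells, so in 1 library of each strain it was not above background at this depth.

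Within classes, Fcgr2b was uneven. Among immune-enriched endothelial-like cells 1 cluster of 290 cells stood at 4687 CPM and another of 247 at 1495. In nuclei the 3 endothelial-like clusters stood at 3305, 1048 and 354.8 CPM, in the same order as their sinusoidal endothelial markers (9944, 3686 and 1230 CPM). Within the Kupffer-like class the level was highest in small clusters: 37 immune-enriched cells, 8 from DA and 29 from LEW, stood at 1342 CPM and carried 2212 CPM of the endothelial markers, 105 cells at 163 with 280 CPM of the markers, and the 136 cells of the main cluster at 25.74 with 63. In TLH 46 Kupffer-like cells stood at 372.2 CPM with 1476 CPM of endothelial markers, and the other Kupffer-like clusters at 14.57 to 37.55. With those clusters left out, an alternative added after seeing the data, the immune-enriched Kupffer-like ratio of Fcgr2b to activating receptors was 0.0218 in DA and 0.027 in LEW, while the TLH ratio moved less, from 0.0619 to 0.0435 as a mean over rats. Whether the transcript in these clusters belonged to macrophages was not tested.

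**Figure D3:**
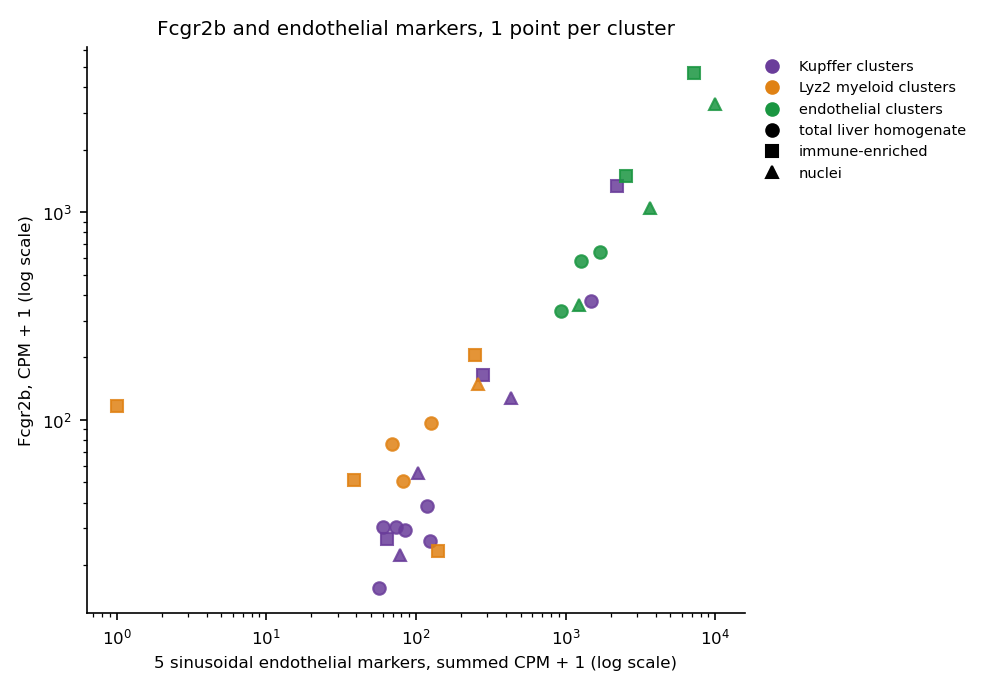
Fcgr2b level (CPM + 1, log) against the summed level of 5 sinusoidal endothelial markers (CPM + 1, log) in each Kupffer-like, Lyz2 myeloid-like and endothelial-like cluster. The Kupffer-like clusters with the highest Fcgr2b (1342 and 372.2 CPM) are also those with endothelial markers (2212 and 1476 CPM).

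The activating receptors divided the Lyz2 myeloid-like class differently. Of the immune-enriched clusters, the 82-cell cluster had 1255 CPM of Fcgr3a and 3854 of Fcer1g. The 26-cell cluster led by S100a8 and S100a9, genes of neutrophils and classical monocytes, had 1554 CPM of Fcgr2a, 742.3 of Fcgr1a, 8861 of Tyrobp and no Fcgr3a UMI. The 70-cell cluster rich in MHC class II had the most Fcgr2b of the class, at 204 CPM, with 150.2 of Fcgr3a and 289 of Fcgr2a. Fcgr3a and Fcgr2b therefore differed in opposite directions between the first and the last of these. Clusters were formed from the same cells, so these values are a description with no test.

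The class differences were tested over libraries with edgeR's quasi-likelihood test, Benjamini-Hochberg adjusted over all genes tested, with the rat as a block. Between endothelial-like and Kupffer-like TLH cells all 7 genes passed, where 37.6% of 6883 genes did. Fcgr2b was 17.81-fold higher in endothelial-like cells (log2 4.15 ± 0.44 SE, adjusted p = 0.00683, higher in 4 of 4 rats). The other 6 were lower in 4 of 4 rats, by 22.39-fold (Hcst) to 41.23-fold (Fcgr1a). Some endothelial-like levels were close to those of hepatocyte-like cells. Fcgr1a stood at 2.51 to 7.56 CPM against 2.28 to 5.62, and Fcgr2a at 9.21 to 13.61 against 5.53 to 12.24. Tyrobp stood at 40.17 to 90.72 against 49.16 to 80.35. In TLH the endothelial-like levels of these 3 were therefore not above background in every rat. Endothelial-like Fcer1g lay above hepatocyte-like cells in both DA rats.

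The same contrast held in the other preparations. In nuclei 5 of 7 genes were tested, where 19.7% of 5089 passed, and all 5 passed. Fcgr2b was 28.58-fold higher in endothelial-like nuclei (log2 4.84 ± 0.18, edgeR adjusted p = 1.39e-50), and Fcgr1a had no UMI in any endothelial-like nucleus, at least 26.02-fold below Kupffer-like nuclei. In the immune-enriched libraries, where 32.2% of 7799 genes passed and the spread came from 2 libraries and 8 classes, all 7 passed: Fcgr2b was 10.35-fold higher (log2 3.37 ± 0.47, adjusted p = 1.48e-04), and log2 6.21 higher without the Kupffer-like cluster rich in endothelial markers. Fcgr2a was lower by log2 -7.21 ± 0.43, Fcgr3a by -4.82 ± 0.41, Fcer1g by -5.35 ± 0.67, Tyrobp by -6.03 ± 0.62 and Hcst by -5.23 ± 0.45.

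Kupffer-like and Lyz2 myeloid-like cells differed less, and which genes passed depended on the preparation and on the clusters included. In TLH 2 of 7 genes passed, where 13% of 5512 did. Fcgr2b was 2.29-fold higher in Lyz2 myeloid-like cells (log2 1.19 ± 0.23, edgeR adjusted p = 9.39e-05), at 66.93 to 92.2 CPM against 14.94 to 50.08. The lowest of these Kupffer-like levels was not above the hepatocyte-like background, so the size of this difference is uncertain. Fcgr2a was lower by log2 -0.69 ± 0.12 (adjusted p = 5.02e-06, lower in 4 of 4 rats), and this was lost without the rat block (adjusted p = 0.371). Without the myeloid cluster rich in Kupffer markers Fcgr1a (-1.24, adjusted p = 1.41e-05), Fcgr3a (-1.26, adjusted p = 6.76e-06) and Fcer1g (-0.47, adjusted p = 5.82e-06) were lower too; with it they were at -0.41, -0.06 and -0.08 and did not pass. In the immune-enriched libraries 0 of 7 passed by edgeR, where 18.7% of 7799 did, 2 had an unadjusted p under 0.05 and DESeq2 also called none. There the Fcgr2b difference was -1.16 ± 0.46, and 1.60 (adjusted p = 0.00107) without the Kupffer-like cluster rich in endothelial markers.

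NK-like cells had the adaptors without most of the receptors. Between NK-like and Kupffer-like TLH cells 6 of 7 genes passed, where 25.5% of 5201 did. Hcst was 5.17-fold higher in NK-like cells (log2 2.37 ± 0.13), Fcer1g was lower by only -0.86 ± 0.08 and Tyrobp by -0.25 ± 0.07 (edgeR adjusted p = 0.0091), whereas Fcgr2a was lower by -3.03 ± 0.20 and Fcgr3a by -3.15 ± 0.29. The Tyrobp call was lost with DESeq2, without the rat block and without DA rat 2. Fcgr2b, at 7.48 to 114.4 CPM in NK-like cells, was at 0.29 (adjusted p = 0.624). In the immune-enriched libraries Hcst was 7.38-fold higher (log2 2.88 ± 0.32, adjusted p = 1.45e-06) and Fcer1g (-0.51) and Tyrobp (0.53) did not pass, where 34.2% of all genes did. Fcgr2a was lower there by -3.24 ± 0.34 and Fcgr3a by -5.37 ± 0.49, and Fcgr2b by -5.95 ± 0.72, or -3.19 without the endothelial-marker cluster.

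pDC-like and B-like cells were compared with Lyz2 myeloid-like cells in the immune-enriched libraries. In pDC-like cells, where 16.8% of 7799 genes passed, Fcgr1a, Fcgr2a and Fcgr3a had no UMI and were at least 31.89, 64.96 and 76.62-fold lower. Fcer1g was 6.91-fold lower (log2 -2.79 ± 0.60, edgeR adjusted p = 0.0119), while Tyrobp (0.69 ± 0.49, adjusted p = 0.425), Hcst (0.12) and Fcgr2b (-1.63, adjusted p = 0.0713) did not pass; the median of all genes was -0.22. In B-like cells, where 16.2% passed, Fcgr1a and Fcgr3a had no UMI (at least 26.34 and 63.28-fold lower), Tyrobp was lower by a ratio of 1300 (counting interval 233.2 to 51361), and Hcst was 8.13-fold lower (log2 -3.02 ± 0.48, adjusted p = 1.93e-04). The B-like Fcgr2b level did not differ detectably from the myeloid one (-0.89 ± 0.55, adjusted p = 0.349). The median of all genes was -0.21 in the latter contrast, and -0.11 with DESeq2's size factors.

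Strain was tested next, LEW minus DA, over 2 rats each. In Kupffer-like TLH cells Fcgr1a, Fcgr2a, Fcer1g and Tyrobp were higher in LEW and Fcgr2b was lower, calls that depended on the UMI minimum and on single rats as given below. Fcgr1a stood at 111.5 and 112.8 CPM in DA and 163.4 and 201.6 in LEW, and Fcgr2a at 243.8 and 254.8 in DA and 427.7 and 461.8 in LEW. Fcer1g was at 1187 and 1253 in DA and 1898 and 1980 in LEW, and Tyrobp at 1613 and 1692 in DA and 2549 and 2704 in LEW. Fcgr2b ran the other way, at 41.46 and 50.08 in DA and 14.94 and 30.79 in LEW. In all 5 the strains did not overlap, and the same held for Fcgr3a and Hcst, which did not pass the test below. The share of all genes that did the same was not counted, so nothing is read from this. Hepatocyte-like cells of the same libraries, taken as background, had 18.13 and 16.28 CPM of Fcgr2b in DA and 11.9 and 17.71 in LEW, so LEW rat 1, with 16 UMIs (95% counting interval 8.54 to 24.27 CPM), was not above background and LEW rat 2 was close to it (20.92 to 43.7 CPM). The size of the Fcgr2b difference is therefore uncertain.

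By edgeR's quasi-likelihood test 5 of the 7 genes passed in these cells, where 8.74% of 6682 genes did. The differences were log2 0.66 ± 0.18 for Fcgr1a (adjusted p = 0.0324), 0.80 ± 0.16 for Fcgr2a (0.00613), 0.63 ± 0.15 for Fcer1g and for Tyrobp (0.0171 each) and -1.06 ± 0.30 for Fcgr2b (0.0417). Fcgr3a, at 100.7 and 131.5 in DA and 190.5 and 167.9 in LEW (0.57 ± 0.18, adjusted p = 0.0633), and Hcst, at 69.1 and 79.25 against 107.4 and 103.3 (0.46 ± 0.18, adjusted p = 0.131), did not. With LEW cells kept from the minimum that the study states, 1500 UMIs in place of 2000, the 4 rises were 0.55, 0.48, 0.32 and 0.29 with adjusted p of 0.157, 0.15, 0.344 and 0.388, and only Fcgr2b (-1.18, adjusted p = 0.0285) passed. The Fcgr2b call was in turn lost with DESeq2 (-1.04, adjusted p = 0.321), without LEW rat 1 (-0.61, adjusted p = 0.329), without DA rat 2 (-0.91, adjusted p = 0.0915) and without the top 6% of doublet scores (-0.72, adjusted p = 0.205). The Fcer1g and Tyrobp calls were lost without either LEW rat, and those of Fcgr1a and Fcgr2a without LEW rat 2. The Fcgr1a call was also lost with DESeq2 (adjusted p = 0.234) and at a minimum of 3000 UMIs (adjusted p = 0.0803), while Fcgr3a passed without a filter on low counts (adjusted p = 0.0488), without DA rat 2 (0.00918) and with a crossed rat block (0.00857).

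Other measures moved with strain in these cells. The 14 Kupffer markers, none at 0, summed to 19168 and 22280 CPM in DA and 39640 and 40725 in LEW, the 30 hepatocyte markers to 102037 and 119617 in DA and 82360 and 91835 in LEW, and 10 dissociation-response genes to 1226 and 1685 in DA and 479 and 686 in LEW. The 5 sinusoidal endothelial markers summed to 126 and 204 CPM in DA and 48 and 75 in LEW, the same direction as Fcgr2b. Their part in the differences was not tested. Without the Kupffer-like cluster rich in endothelial markers the Fcgr2b difference was -1.08 (adjusted p = 0.0497), and without the clusters low in Kupffer markers the 7 differences were -0.96 (Fcgr2b) and 0.36 to 0.73 (the others), with the same 5 calls.

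**Figure D4:**
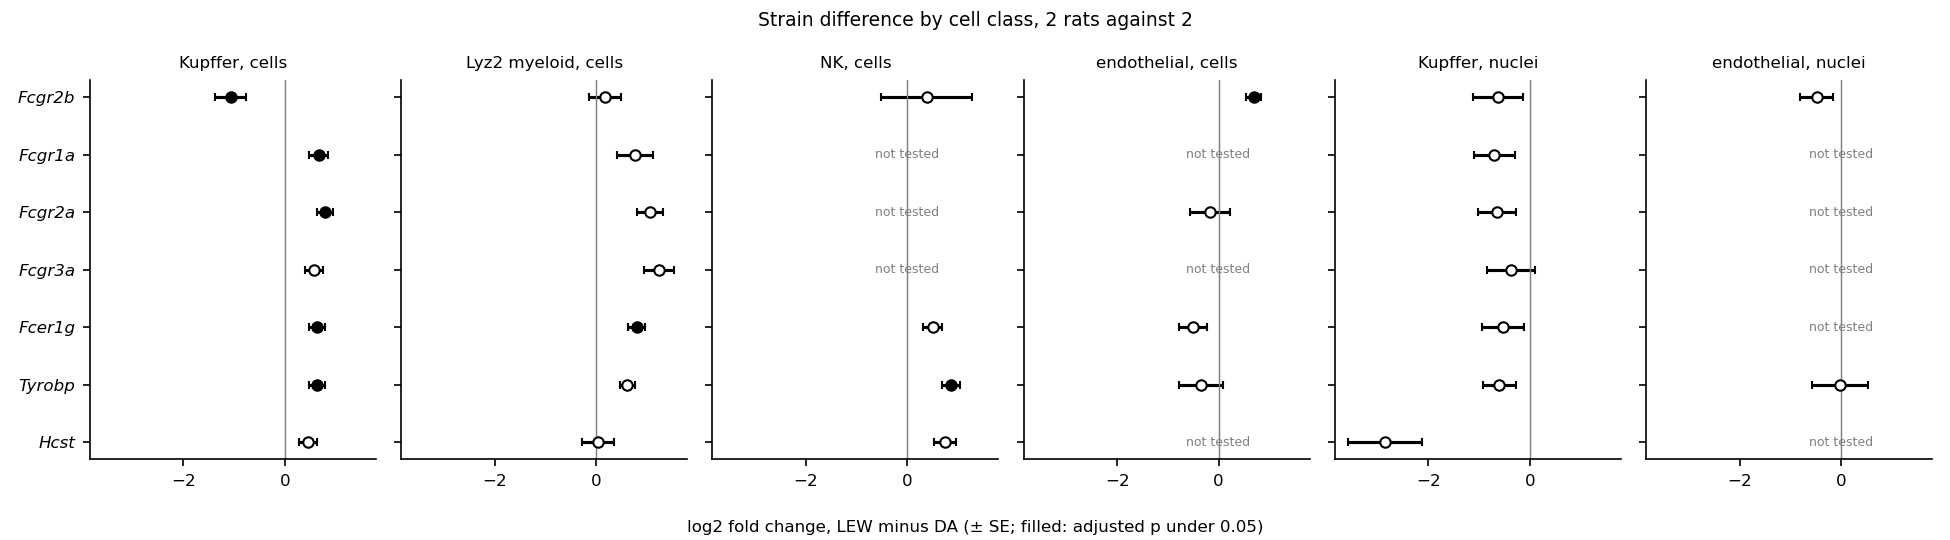
LEW minus DA difference (log2, point) with its standard error (bar) for each of the 7 genes in each class and platform, filled where the adjusted p was under 0.05. In Kupffer-like cells the TLH points for Fcgr1a, Fcgr2a, Fcer1g and Tyrobp lie above 0 (0.63 to 0.80) and the nuclei points below it (-0.70 to -0.53).

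In Lyz2 myeloid-like TLH cells 1 of 7 genes passed, where 1.94% of 2841 did. Fcer1g was at 953 and 1045 CPM in DA and 1671 and 1932 in LEW (log2 0.80 ± 0.17, edgeR adjusted p = 0.0449), a call lost with DESeq2 (adjusted p = 0.0609), without LEW rat 2 (0.23), at 3000 UMIs (0.115) and with the stated UMI minimum (0.0688). Fcgr3a, at 70.86 and 87.7 in DA and 164.3 and 230.5 in LEW (1.25 ± 0.29, adjusted p = 0.0682), Fcgr2a (1.06 ± 0.26, adjusted p = 0.0792) and Tyrobp (0.62 ± 0.15, adjusted p = 0.074) lay in the same direction without passing. Under single alternatives Fcgr3a passed in 8 cases, Tyrobp in 4 and Fcgr2a in 3. Fcgr2b was at 77.94 and 66.93 against 75.1 and 92.2 (0.17, interval -0.45 to 0.80). Other measures differed without overlap in these cells: the 14 Kupffer markers summed to 6023 and 6289 CPM in DA and 10223 and 12212 in LEW, the 10 dissociation-response genes to 1109 and 1313 in DA and 610 and 687 in LEW, and the 18 NK markers to 461 and 312 in DA and 66 and 101 in LEW. The hepatocyte markers summed to 91652 and 97091 CPM in DA and 75848 and 80654 in LEW, and the 5 endothelial markers to 113 and 145 in DA and 33 and 41 in LEW. Their part was not tested.

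In NK-like TLH cells 4 of the 7 genes were tested and Tyrobp passed, where 2.2% of 2823 genes did. It stood at 1248 and 1181 CPM in DA and 2217 and 2402 in LEW (log2 0.86 ± 0.17, edgeR adjusted p = 0.0164). The call was lost without either LEW rat (adjusted p = 0.0534 and 0.224) and at 3000 UMIs (adjusted p = 0.716). Hcst was at 342.6 and 319.4 in DA and 557.1 and 600.6 in LEW without passing (0.74 ± 0.22, adjusted p = 0.105; 0.0356 without DA rat 1). The NK marker list summed to 15187 and 15359 CPM in DA and 26435 and 31582 in LEW, also higher in LEW, and the dissociation-response genes to 946 and 1024 in DA and 445 and 629 in LEW. Their part in the Tyrobp difference was not tested.

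In endothelial-like TLH cells 4 of the 7 were tested and Fcgr2b passed, where 3.44% of 7307 genes did. With the levels given above it was higher in LEW by log2 0.69 ± 0.15 (edgeR adjusted p = 0.0201). The call was lost with DESeq2 (adjusted p = 0.053), without LEW rat 1 (0.75, adjusted p = 0.211), without LEW rat 2 (0.64, adjusted p = 0.252) and at 3000 UMIs (0.75, adjusted p = 0.145). The 5 endothelial markers did not follow it, at 1467 and 1691 CPM in DA and 1740 and 1453 in LEW, whereas the dissociation-response genes summed to 1439 and 1833 in DA and 683 and 924 in LEW, and their part was not tested. Fcer1g (-0.49) and Tyrobp (-0.35) did not pass. Tyrobp was at levels close to those of hepatocyte-like cells, while Fcer1g lay above them in both DA rats.

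The contrast between the strain differences of these 2 classes was itself tested; for Fcgr2b its Kupffer-like part rests on LEW levels at or near the hepatocyte-like background given above. The strain difference in endothelial-like cells minus that in Kupffer-like cells was log2 1.78 ± 0.24 for Fcgr2b (edgeR adjusted p = 4.29e-11). It was -1.11 ± 0.18 for Fcer1g (edgeR adjusted p = 2.29e-07) and -0.98 ± 0.19 for Tyrobp (edgeR adjusted p = 3.90e-04). These p-values rest largely on a spread pooled over all genes. These 3 of 7 genes passed where 2.61% of 7725 did; 54.46% of the 202 calls were positive, and 36.2% of 163 with DESeq2's size factors. Without LEW rat 1 none of the 3 passed, at 1.34, -0.68 and -0.40 (adjusted p = 0.175, 0.59 and 0.724), and only 4 genes were called. With any 1 of the other rats left out, all 3 kept their calls. DESeq2 called Fcgr2b (1.74, adjusted p = 0.00202) and Fcer1g (adjusted p = 0.0196) but not Tyrobp (adjusted p = 0.998). At 3000 UMIs Fcgr2b passed (2.07) and Fcer1g (-0.66, adjusted p = 0.951) and Tyrobp (-0.03) did not, and with the stated UMI minimum Tyrobp did not (-0.47, adjusted p = 0.0912).

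The TLH strain calls were not made in nuclei, and the difference between the platforms was not tested. In Kupffer-like nuclei 0 of 7 genes passed by edgeR, where 0.916% of 4911 did; 1 had an unadjusted p under 0.05 and DESeq2 also called none. Tyrobp was at 403.3 and 313.6 CPM in DA and 242 and 205.3 in LEW (log2 -0.60 ± 0.32, interval -1.24 to 0.03), and Fcgr1a at 83.22 and 89 in DA and 38.06 and 64.15 in LEW (-0.70 ± 0.41, interval -1.50 to 0.11). Fcgr2a was at 96.02 and 135.6 in DA and 57.1 and 86.6 in LEW (-0.64, interval -1.39 to 0.10). For these 3 the strains did not overlap and DA was higher, the opposite of TLH. The share of all genes that did so was not counted, so nothing is read from this. Fcgr2b, at 51.21 and 59.34 in DA and 21.75 and 48.11 in LEW, lay in the same direction as in TLH (-0.63 ± 0.49, interval -1.59 to 0.33), from 8 to 15 UMIs per library. Hcst had 6 and 13 UMIs in DA and 2 in each LEW library (-2.85 ± 0.73, adjusted p = 0.0926; -2.81, adjusted p = 0.023, without a filter on low counts). Kupffer markers summed to 9532 and 8743 CPM in DA and 5016 and 6075 in LEW, also the reverse of TLH. A Kupffer-like cluster low in these markers had 2636 CPM of them, against 23153 and 9966 in the other clusters. It held 25 of 69 and 25 of 95 Kupffer-like nuclei in DA, and 41 of 81 and 36 of 89 in LEW. The NK markers summed to 352 and 648 in DA and 201 and 196 in LEW, and the 17 conventional dendritic cell markers to 2689 and 2183 in DA and 511 and 1052 in LEW. The part of these in the differences was not tested.

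In endothelial-like nuclei 2 of the 7 were tested and 0 passed by edgeR, where 0.44% of 5228 genes did; 0 of the 2 had an unadjusted p under 0.05 and DESeq2 called none. Fcgr2b differed by log2 -0.48 ± 0.33 (interval -1.13 to 0.17), against 0.69 (interval 0.39 to 0.99) in TLH. The difference between the platforms was not tested. The 5 endothelial markers moved in the same direction, at 4610 and 5734 CPM in DA and 3026 and 2808 in LEW, and their part was not tested. With 1 immune-enriched library per strain there was no strain test there. Fcgr2b in endothelial-like cells was 3574 CPM in DA and 3834 in LEW. In Kupffer-like cells of these libraries, at the levels given earlier, Fcgr2a, Fcer1g and Tyrobp were lower in LEW, and Fcgr3a was nearly equal. Fcgr1a, Hcst and Fcgr2b were higher in LEW. The rises of Fcgr2a, Fcer1g and Tyrobp in TLH were therefore not seen in this pair of rats. All of these levels included the cluster rich in endothelial markers, with 8 cells in DA and 29 in LEW. Its part in them was not tested.

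Genes of the same pathways were read from lists beside the members. In Kupffer-like TLH cells the median strain difference was log2 0.63 over the 7 genes and -0.00 over all genes, of which 8.74% were called; list shares near that figure are no result about a list. Of 26 receptors that pair with the adaptors 6 were tested and 2 rose in LEW by edgeR's adjusted p, Klrk1, which encodes NKG2D (1.49 ± 0.31, adjusted p = 0.00679), and Lilra5 (0.94, adjusted p = 0.00869), with a list median of 0.52. Of 34 ITAM signalling genes 19 were tested and the Src-family kinases Blk (3.48) and Fgr (1.14) rose, with none falling and a median of 0.20. Of 28 ITIM receptors and phosphatases 15 were tested, Lilrb3l rose (3.09) and Siglec5 (-2.80) and Ceacam1 (-0.85) fell. Of 12 other Fc receptors 4 were tested and the polymeric immunoglobulin receptor Pigr fell (-0.81). Of 10 IgG chains and complement partners 6 were tested and the C1q chains C1qa (0.76), C1qb (0.67) and C1qc (0.79), also Kupffer markers, rose; none of 6 other ITAM subunits was tested.

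In the other strain comparisons the list calls are given beside the share of all genes called, and nothing is read from them. In Lyz2 myeloid-like TLH cells, where 1.94% of all genes passed, the one listed call was Lilrb3l (3.33), 1 of 7 inhibitory genes tested. In Kupffer-like nuclei (0.916%) it was Siglec5 (-2.49, edgeR adjusted p = 0.0201), 1 of 12 tested. In NK-like and endothelial-like cells and endothelial-like nuclei, where 2.2%, 3.44% and 0.44% of all genes passed, none of the listed genes outside the members did. In the endothelial minus Kupffer strain contrast (2.61%) Rac2 (-2.0), a GTPase of leukocytes, passed as 1 of 22 ITAM signalling genes tested, and C1qa (-0.48), C1qb (-0.76) and C1qc (-0.66) as 3 of 6 IgG chains and complement partners. Lilrb3l also rose in Kupffer-like TLH cells, and Siglec5 fell in Kupffer-like cells of both TLH and nuclei.

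In the Wistar sections all 7 genes were found in every zone, with Fcgr2b somewhat higher pericentrally and Fcgr2a, Fcer1g and Tyrobp higher periportally. Spots were split into 3 equal groups by zonation markers, 812, 812 and 813 spots in the first section and 801, 801 and 802 in the second. Fcgr2b was at 52.1, 61.7 and 64.7 CPM from periportal to pericentral spots in the first section and at 54.1, 61.2 and 63.7 in the second. Tyrobp ran the opposite way, at 63.4, 46.2 and 40.3, and at 67.6, 42.6 and 41.3. A spot holds several cells, so fewer cells of a type and less RNA per cell cannot be told apart here.

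The pericentral to periportal ratio was 1.24 (95% counting interval 1.11 to 1.38) and 1.18 (1.06 to 1.31) for Fcgr2b. It was 0.657 (0.573 to 0.751) and 0.673 (0.589 to 0.768) for Fcer1g and 0.657 (0.495 to 0.867) and 0.638 (0.477 to 0.849) for Fcgr2a. In both sections these intervals lay on opposite sides of 1. Fcgr1a (0.828 and 0.652) and Fcgr3a (0.688 and 0.771) were below 1 with an interval reaching 1 in 1 section each, and Hcst (0.814 and 0.921) could not be told from 1. Endothelial markers had ratios of 1.37 and 1.43 and Kupffer markers 0.544 and 0.508, the same directions as Fcgr2b and Tyrobp, and their part was not tested.

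**Figure D5:**
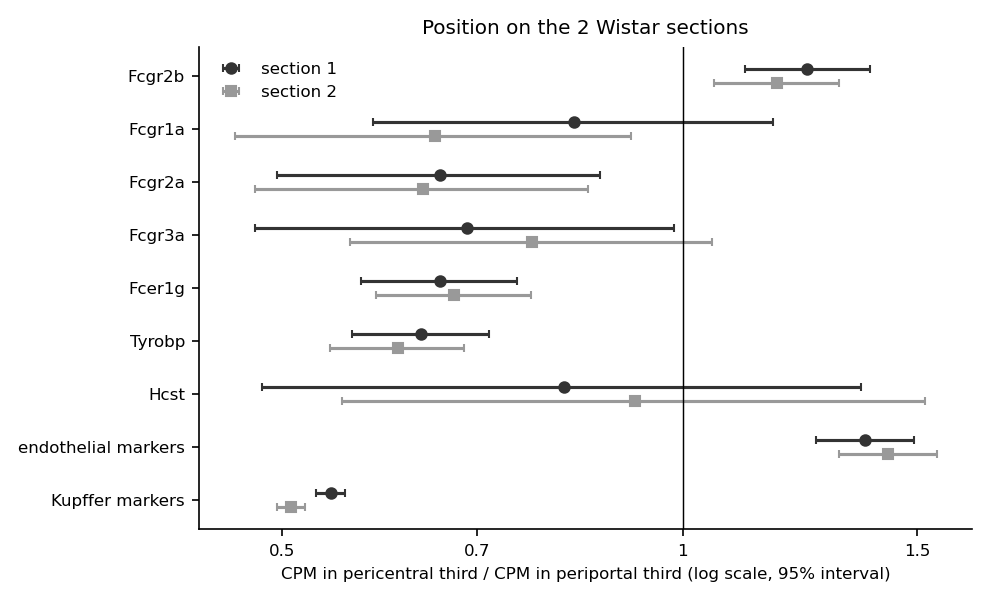
Pericentral over periportal CPM ratio (log axis) with its 95% counting interval for the 7 genes and for summed endothelial and Kupffer markers, in each of the 2 Visium sections. Fcgr2b (1.24 and 1.18) and endothelial markers (1.37 and 1.43) lie above 1, and Fcer1g (0.657 and 0.673) and Kupffer markers (0.544 and 0.508) below it.

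Across the 20 class and library points of the immune-enriched data, which share 2 libraries and their depths, the genes most like each member were ranked by Pearson's r of log2(CPM + 10) among 5936 genes. Fcgr2b was most like Tie1 (0.978), an endothelial receptor kinase, Tlnrd1 (0.976) and Pgm2 (0.962), and its r with the other members ran from -0.23 (Hcst) to 0.45 (Fcgr3a). Fcgr1a and Fcgr3a were alike (0.966), and both were near C5ar1, the C5a receptor (0.994 and 0.978). Fcgr2a was nearest Cfd (0.945), Fcer1g and Tyrobp were nearest each other (0.950), and Hcst was nearest Arhgap9 (0.946), Laptm5 (0.919) and Fyb1 (0.917). These are descriptions over points that are not independent.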

How the data were processed

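The deposited tables hold UMI counts per gene and barcode, which the authors made with Cell Ranger 3.1.0 (cells and nuclei) or Space Ranger 1.1.0 (Visium) on a custom Rnor_6.0 reference, and to which their later filters had not been applied. The TLH and immune-enriched tables carry no gene names; their rows were taken to be in the order of the 32883 genes that accompany the nuclei. The members and gene lists were chosen with earlier results of these data known, and the rule naming clusters was set with the clusters in view.

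Cells were kept above 1500 UMIs (DA rat 1) or 2000 (the other TLH rats; 1500 is stated for both LEW rats, but 2000 leaves the cell numbers of the authors' map), below 30, 20, 40 and 40% mitochondrial UMIs; immune-enriched cells above 1000 UMIs and below 50%, nuclei above 1000 and below 10%. The study looked for doublets and removed none, and none were removed here: Scrublet (expected rate 0.06) called 1 to 34 cells per library, under 0.5% in 6 of 10, so leaving out the top 6% of scores is an alternative. Cells were clustered with Seurat 5.3.0 and sctransform 0.4.2 in R 4.3.3, without the 7 genes, and scored in Python 3.11.15 with scanpy 1.11.5. Libraries were aligned with a Harmony-type correction before clustering, and clusters rich in Ptprc were clustered again. A cluster took the name of a class with at least 3 of its markers among the 30 leading genes by fold. That class also had to hold the most markers among the first of these. Clusters left without a name could then be named only as hepatocyte-like.

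UMIs were summed per library and class and tested with edgeR 4.0.16 (glmQLFit and glmQLFTest, robust, TMM, filterByExpr, adjusted p under 0.05 over all genes kept), with DESeq2 1.42.0 as an alternative. Strain fits had no block, class fits and the strain by class interaction had the rat or library as a block. A strain is 2 rats, and edgeR draws each gene's spread towards that of all genes tested. The p-values therefore rest largely on this pooled spread, and very small ones are not evidence from the 2 rats alone. Named pathway genes were those past the threshold in a strain comparison, up to 4 per list and direction by size. Likeness used genes at 50 CPM or more in at least 1 class. On simulated counts, the Kupffer-like TLH strain fit (6682 genes) recovered 16% of genes changed 2-fold and 92% of those changed 4-fold; the endothelial minus Kupffer TLH fit (6883 genes) recovered 37% and 90%, the endothelial-like nuclei strain fit (5228 genes) 10% and 66%, and the interaction (7725 genes) 1% and 34%. Of the simulated calls 4.43%, 2.31%, 7.32% and 10.3% were false, the last 2 above the 5% that the threshold allows. Counts were drawn 1 time per fit, with the same dispersion for every gene and no rat or class effect beyond the set changes. These shares are therefore not error rates of the real fits. Floors and the intervals of levels, shares and ratios cover counting error only. Intervals of log2 differences are normal intervals from the SE, which are too narrow for so few rats. Visium spots were ranked by periportal and pericentral marker lists.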

Additional observations from a re-analysis of the deposited data

Results flagged for a closer look

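The strain difference was itself different between endothelial-like and Kupffer-like cells for 3 genes, by the edgeR interaction test over the 4 TLH rats. The LEW minus DA difference in endothelial-like cells exceeded that in Kupffer-like cells by log2 1.78 for Fcgr2b, and was smaller by log2 -1.11 for Fcer1g and -0.98 for Tyrobp. Fcgr2b was higher in LEW endothelial-like cells and lower in LEW Kupffer-like cells, where the LEW levels of 14.94 and 30.79 CPM were at or near the 11.9 and 17.71 CPM of hepatocyte-like cells. The endothelial-like levels of Tyrobp were close to those of hepatocyte-like cells in every TLH library. Those of Fcer1g lay above them in both DA libraries and closer to them in the LEW libraries. Without LEW rat 1 these differences were 1.34, -0.68 and -0.40 and none passed. Tyrobp also did not pass with DESeq2, at 3000 UMIs or with the stated UMI minimum, and Fcer1g did not at 3000 UMIs.

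Every LEW rat lay on one side of every DA rat in Kupffer-like TLH cells, and on the opposite side in Kupffer-like nuclei, for 4 genes. The LEW minus DA difference was log2 0.66 in TLH and -0.70 in nuclei for Fcgr1a, 0.80 and -0.64 for Fcgr2a, 0.63 and -0.60 for Tyrobp, and 0.46 and -2.85 for Hcst, the last from 6, 13, 2 and 2 UMIs in nuclei. How many of all genes reversed in this way was not counted, so nothing is read from the number. In nuclei 0 of the 7 genes passed by edgeR, where 0.916% of 4911 did. Hcst did not pass in TLH either. Kupffer markers reversed too, from 19168 and 22280 CPM in DA and 39640 and 40725 in LEW in TLH. In nuclei they summed to 9532 and 8743 in DA and 5016 and 6075 in LEW. A cluster low in these markers also held a larger share of the LEW Kupffer-like nuclei. The part of these was not tested. The difference between TLH and nuclei was not tested, and the platforms also differ in chemistry and in the RNA they capture.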

How the results depend on the processing

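Calls between classes were stable and calls between strains were not. Of the values under the alternatives, 403 of 407 kept direction and call for genes called between classes, 83 of 112 for those called between strains and 32 of 39 in the interaction; the rest kept direction only. The TLH strain comparisons called 584 (Kupffer-like), 55 (Lyz2), 62 (NK-like) and 251 (endothelial-like) genes, and nuclei 45 (Kupffer-like) and 23 (endothelial-like). DESeq2 called 210 in Kupffer-like, 32 in NK-like and 118 in endothelial-like TLH cells, and 1516, 409, 740 and 537 in the TLH endothelial-like, Lyz2 and NK-like and the nuclei endothelial-like contrasts with Kupffer-like cells (2591, 714, 1328 and 1000). Without a filter on low counts strain calls were 167 (Lyz2), 94 (NK-like), 469 (endothelial-like), 176 and 155 (nuclei). With a minimum of 3000 UMIs they were 3 (NK-like) and 59 (endothelial-like), and 1323, 391 and 218 for the TLH class contrasts; with 2000 UMIs in nuclei, 17 and 7, and 186 for the class contrast. The stated UMI minimum gave 302 calls in Kupffer-like TLH cells. Leaving out the top Scrublet scores gave 24 and 15 in nuclei. Without the myeloid clusters rich in Kupffer markers, chosen after seeing the data, Lyz2 cells gave 88. Leaving out each rat in turn gave 392 to 889, 101 to 188, 55 to 174, 44 to 569, 32 to 172 and 52 to 119 calls in these 6 comparisons. The replicate block gave 13 calls in NK-like cells, 395 in endothelial-like TLH cells and 103 in Kupffer-like nuclei. It took the calls of Fcgr1a in Kupffer-like (edgeR adjusted p = 0.0575) and Tyrobp in NK-like TLH cells (edgeR adjusted p = 0.116). Deviations of same-numbered rats were at most weakly correlated (r of -0.115 to 0.0584). Such a correlation cannot show whether rats were handled in pairs, and the paper speaks of pairs of LEW and DA rats for the nuclei. The crossed replicate block gave 997 calls in Kupffer-like TLH cells. Without the rat block the class contrasts gave 1400, 325, 826 and 586 calls. The interaction called 202 genes, 134 without a filter, 117 without top Scrublet scores and 95 without clusters low in Kupffer markers; alternatives added after seeing the data gave 18 with DESeq2, 10 at 3000 UMIs, 108 with the stated minimum and 4 to 113 with each rat left out. The Fcgr2b to activating ratio of Kupffer-like nuclei (mean 0.2) was 0.172 without top Scrublet scores and 0.249 with the members kept in the map. In the immune-enriched libraries it was 0.0233 (DA) and 0.242 (LEW) without top Scrublet scores and 0.0218 and 0.027 without the endothelial-marker cluster, and in endothelial-like cells 603 and 312.8 without top Scrublet scores. The mean share of endothelial-like TLH cells with an Fcgr2b UMI was 47.25% thinned and 72.23% unthinned. The cause of these shifts was not tested.

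Directions that turned all belonged to log2 differences that had not passed. Leaving out each rat in turn gave, between strains, -0.015 to 0.35 (Fcgr2b) and -0.18 to 0.23 (Hcst) in Lyz2 cells, -2.25 to 1.69 (Fcgr2b, NK-like), -0.44 to 0.23 (Fcgr2a) and -1.04 to 0.25 (Tyrobp) in endothelial-like TLH cells, -0.93 to 0.12 (Fcgr3a) and -1.06 to 0.15 (Fcer1g) in Kupffer-like nuclei and -0.40 to 0.23 (Tyrobp) in endothelial-like nuclei. It gave -0.32 to 0.10 (Fcgr3a) and -0.046 to 0.19 (Hcst) for Lyz2 against Kupffer-like TLH cells, -0.43 to 0.61 (Fcgr2b) for NK-like against Kupffer-like, and -0.64 to 0.64 (Fcgr1a) and -1.08 to 0.41 (Fcgr3a) in the interaction. Hcst between strains in Lyz2 cells was -0.0033 with the members in the map and -0.024 with the stated minimum; Tyrobp was 0.53 in endothelial-like TLH cells at 3000 UMIs and 0.0060 in endothelial-like nuclei with the replicate block, and Fcgr3a 0.024 in Kupffer-like nuclei without clusters low in Kupffer markers. For Lyz2 against Kupffer-like TLH cells Hcst was -0.047 without a filter, -0.011 with the members in the map, -0.15 without clusters low in Kupffer markers and -0.11 without those rich in them, and Tyrobp -0.094 without clusters low in them. In the immune-enriched libraries Fcgr2b was 1.60 and Fcer1g -0.054 without the endothelial-marker cluster, and Fcer1g -0.025 without the myeloid cluster rich in Kupffer markers. In the interaction Fcgr1a was -0.026 with DESeq2's size factors, -0.036 without a filter, -4.39 at 3000 UMIs, -0.30 without top Scrublet scores, -0.14 with the members in the map, -0.33 with the stated minimum and -0.0092 without clusters low in Kupffer markers, and Fcgr3a 0.25 at 3000 UMIs and 0.091 with the stated minimum.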

Other observations

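Fcgr2b was also found in mesenchymal-like cells, together with transcripts of other cell types. These cells of the immune-enriched libraries, 26 in DA and 46 in LEW, had 612 and 1430 CPM of Fcgr2b. The ratio of Fcgr2b to activating receptor UMIs was 7.55 in DA (95% counting interval 4.01 to 15.7) and 2.16 in LEW (1.95 to 2.38). The LEW cells also held 867 Fcer1g and 1008 Tyrobp UMIs, and 26 of the 46 carried both kinds of receptor. In TLH the 3 mesenchymal-like clusters differed: 176 cells had 575.4 CPM of Fcgr2b, within the 334.5 to 644.5 CPM of the endothelial-like clusters, 84 cells had 96.29 with 1586 CPM of Fcer1g and 1872 of Tyrobp, levels like those of Kupffer-like cells, and the other 1025 had 34.84. Whether the Fcgr2b in these cells belonged to mesenchymal cells was not tested.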
